A study of Bos taurus with 15 samples.

Results

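The cytosolic ribosomal proteins were represented by 48 probes of 45 genes, out of 6698 genes with a symbol, on a bovine array with 15208 probes other than controls. The members were the probes whose gene symbol, description or systematic name gave a protein of the large (L), small (S) or stalk (P) part of the ribosome with its number. Of 151 probes that matched these words, 66 for mitochondrial ribosomal proteins, 6 for kinases and 31 described as "similar to" a ribosomal protein were left out. All 48 remaining probes were well above background in all 15 arrays, so none was lost to the minimum of 3 arrays. They comprised 25 probes of 25 large-subunit and stalk genes and 23 probes of 20 small-subunit genes. RPS12, RPS15A and RPS28 had 2 probes each.

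The ribosome of the cytosol is made of a small subunit, which reads the messenger RNA, and a large subunit, which joins the amino acids. Each subunit is a scaffold of ribosomal RNA that carries many small proteins, and most of their transcripts share a pyrimidine-rich start through which growth signals set their translation. These transcripts are among the most abundant of any cell, and several of them are used as reference genes in PCR. In ruminants, the caruncular endometrium is the part of the uterine wall to which the placenta later attaches.

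Japanese Black cows gave the RNA, which was extracted from caruncular endometrium and hybridized with 1 cow per one-color array. On day 15 there were 4 non-pregnant and 3 pregnant cows, and on day 18 there were 4 of each, with insemination counted as day 1. The study describes equal numbers of animals at each stage, and all arrays held here were used. Pregnancy was judged by eye from the presence of trophoblast in the uterine horn on the side of the corpus luteum. The study asked how gene expression in the endometrium differs between pregnant and non-pregnant cows, and each level below is the processed signal of a spot divided by the median of its array.

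The arrays had median signals between 315 and 838, and from 65.6 to 88.3% of its probes were well above background. The 3 pregnant cows of day 15 were scanned on 1 day, and so were the groups of day 18, each on its own day, whereas the non-pregnant group of day 15 was spread over 3 days. No slide or scan day held more than 1 group. In bulk tissue, fewer cells of a type and less RNA per cell cannot be told apart. The summed level of 8 of 9 stroma markers was from 845 to 1660 times the array median in the non-pregnant and from 1126 to 1253 in the pregnant group of day 15, and from 703 to 1218 and from 709 to 900.4 in those of day 18. The highest of these, 1660 and 1218 in the non-pregnant groups, were in replicate 3 of day 15 and replicate 4 of day 18. The summed level of 8 of 9 epithelial markers was from 198 to 357, from 108 to 149, from 134 to 394 and from 232 to 333 in the same order of groups. The summed level of 11 of 16 trophoblast markers was from 0.265 to 0.392 in the non-pregnant and from 0.333 to 0.545 in the pregnant group of day 15, and from 0.536 to 1.63 in the non-pregnant group of day 18. In the pregnant group of day 18 it was 0.847 in replicate 1, against 160.5, 101 and 730.5 in replicates 2, 3 and 4. The summed level of 4 of 6 smooth muscle markers was from 42.7 to 94.1, from 45.8 to 65.4, from 40.6 to 209 and from 11.8 to 37.8 in the same order of groups.

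Most of the members were bright spots that moved together from array to array. Of the 48 probes, 40 had a mean level over 16 times the array median, and 43 were above the median in every array. The probes of RPLP0, RPL6, RPS3A and a first probe of RPS12 (ABR1226) were below the median in every array. The median level of the 48 members on the log2 scale was 8.03, 7.60, 8.74 and 8.22 in the non-pregnant and 8.12, 8.06 and 8.13 in the pregnant group of day 15. It was 7.74, 7.86, 7.62 and 8.42 in the non-pregnant and 7.86, 8.10, 7.98 and 7.87 in the pregnant group of day 18. The groups overlapped, and the pregnant groups lay inside the range of the non-pregnant ones. Non-pregnant replicate 3 of day 15 held the highest value of its group for 27 members, and non-pregnant replicate 4 of day 18 for 41 members. Replicate 3 of day 15 was the only array on its slide and scan day, so cow, slide and scan day cannot be told apart there. Replicate 2 of the non-pregnant group of day 15 held the lowest value of its group for 29 members.

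**Figure D1:**
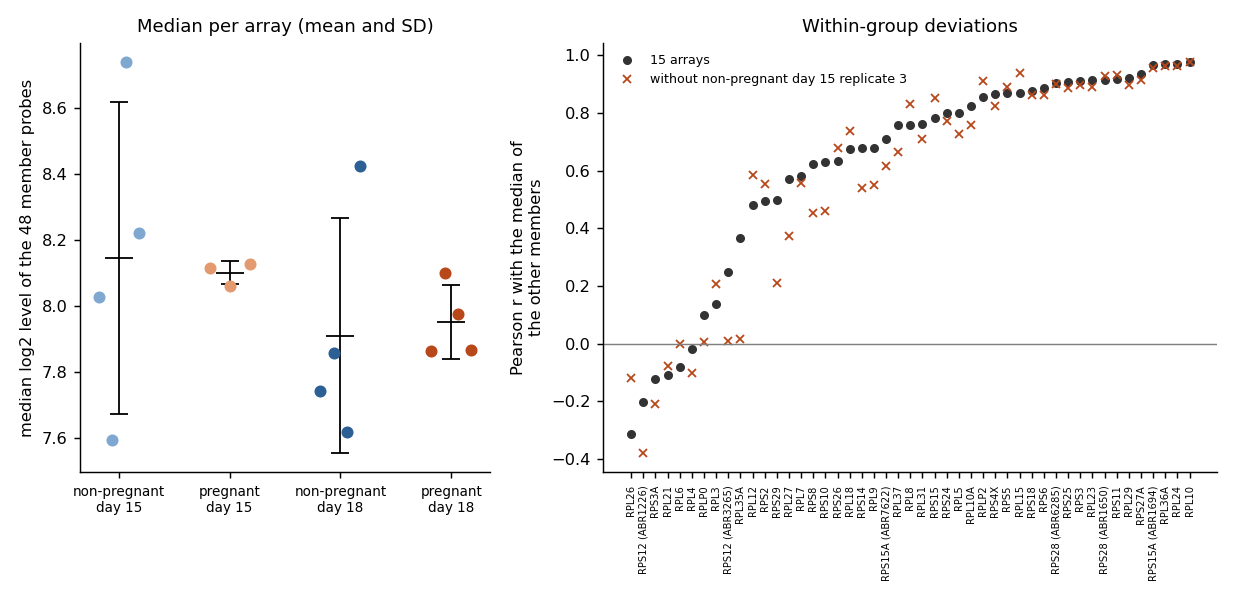
The left panel plots the median log2 level of the 48 member probes in each array, with the mean and SD of each group (n = 4, 3, 4 and 4). The right panel plots, for each member but 1 that is not drawn, the Pearson correlation of its deviations from the group means with the median deviation of the other members over 15 arrays (circles), and without non-pregnant replicate 3 of day 15 (crosses). The non-pregnant arrays of day 15 ranged from 7.60 to 8.74, and 35 of 48 members had a correlation above 0.5.

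The spread between arrays was wider in the non-pregnant groups. The SD of a member over the arrays of its group had a median of 0.46 in the non-pregnant and 0.12 in the pregnant group of day 15, and of 0.31 and 0.19 in those of day 18, all on the log2 scale. Over all probes tested it was 0.49 and 0.21, and 0.42 and 0.32. Whether the spread differed between the groups was not tested. The residual SD of the model was 0.335 for the median member and 0.441 for the median probe tested, and 39 members were under the latter. The deviations of a member from its group means were set against the median deviation of the other members over the 15 arrays, as a description of arrays that share their scaling. The correlation had a median of 0.76, was above 0.5 for 35 members and below 0 for 6. It was highest for RPL10 (0.98), RPL24 (0.97) and RPL36A (0.97). The 6 members below 0 were RPL26 (-0.31), RPS12 probe ABR1226 (-0.20), RPS3A (-0.12), RPL21 (-0.11), RPL6 (-0.08) and RPL4 (-0.02). All but RPL4 were dim. RPS12 probe ABR1226, RPS3A and RPL6 were below the array median in every array. RPL21 had levels from 0.542 to 1.26 and RPL26 from 1.98 to 5.57 times the array median, against 35.6 to 189 for RPL4. Whether the dim probes measure their transcripts was not tested. Without non-pregnant replicate 3 of day 15, the median was 0.73 and 34 members were above 0.5. The same correlation was not computed for other probes.

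**Figure D2:**
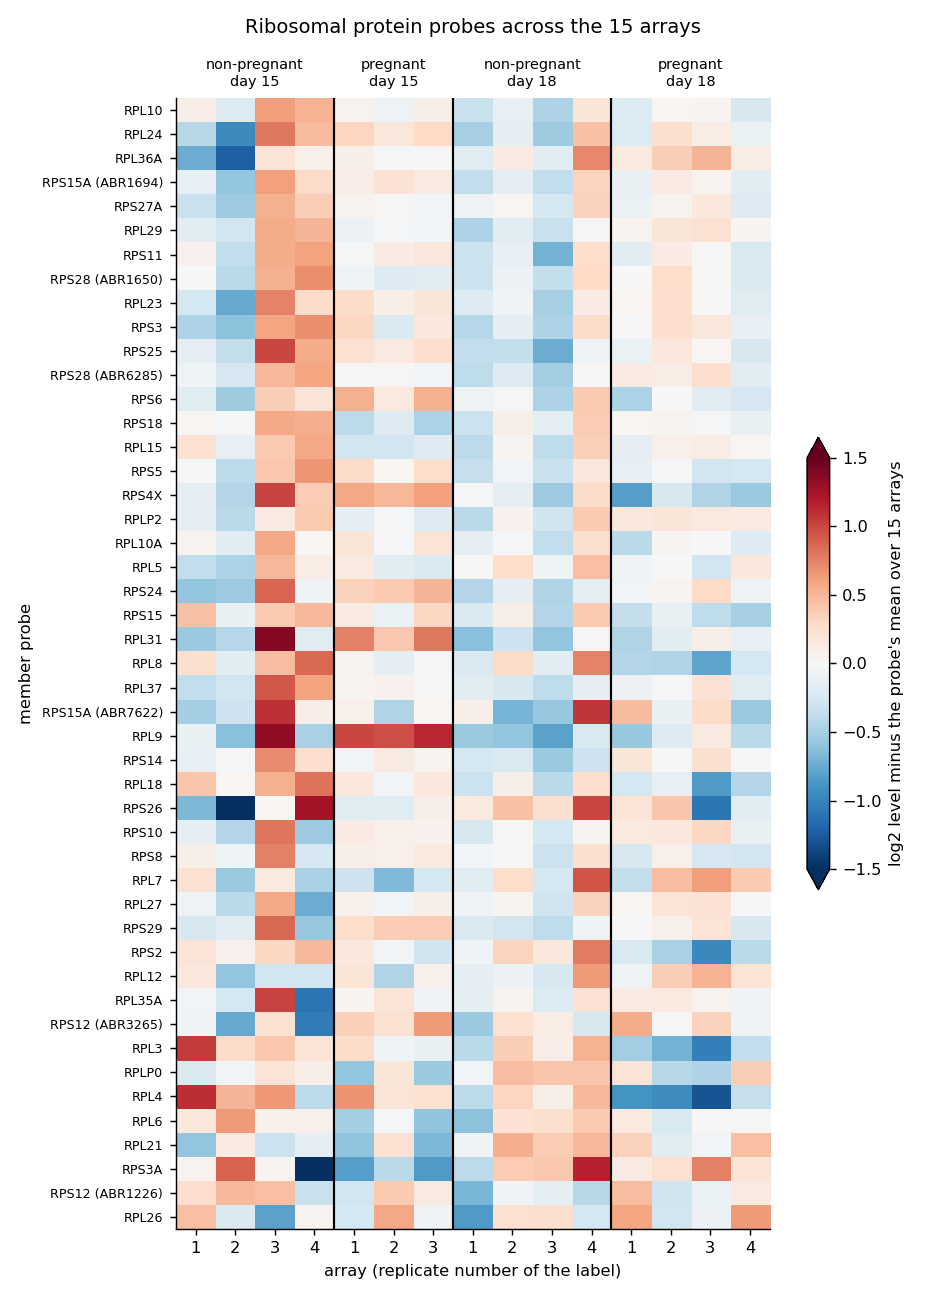
Each row is a member probe (1 is not drawn) and each column an array, grouped by pregnancy and day, and the color is the log2 level minus the mean of that probe over 15 arrays (limited to 1.5 in either direction). Rows are ordered by their correlation with the other members, from RPL10 (0.98) at the top to RPL26 (-0.31) at the bottom. The upper rows share the high columns of non-pregnant replicate 3 of day 15 and replicate 4 of day 18, whereas the bottom rows are mixed in these columns.

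The share of all 13164 probes tested that passed the limma test (Benjamini-Hochberg adjusted p under 0.05) was 0.957% for pregnancy on day 15, 6.91% for pregnancy on day 18, 2.73% for the difference between these (the interaction), 10.8% for day 18 against day 15 in non-pregnant cows and 16.4% in pregnant cows. With a fold change over 2 in addition, which is what "called" means here, the shares were 0.798, 5.75, 2.72, 7.16 and 11.9% in the same order. Among the 48 members, the numbers that passed were 0, 1, 0, 0 and 3, and those called were 0, 0, 0, 0 and 3. Thus, 4 members passed in any comparison. In the pregnant cows of day 18, 3 were lower than in the pregnant cows of day 15, and 1 was lower than in the non-pregnant cows of day 18.

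The probes of these 4 genes, together with that of RPL3, which came next to RPL4 and RPS2 on day 18 without passing the test, are shown because the results turn on them. All are 60 bases long, are written 5′ to 3′ as the array files give them, and are in lower case throughout because no stretch is singled out. Their place in the genome was not determined here.
RPL4: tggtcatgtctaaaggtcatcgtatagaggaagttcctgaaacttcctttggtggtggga
RPS4X: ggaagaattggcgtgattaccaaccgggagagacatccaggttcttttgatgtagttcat
RPL9: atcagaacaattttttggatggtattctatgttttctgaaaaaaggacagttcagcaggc
RPS2: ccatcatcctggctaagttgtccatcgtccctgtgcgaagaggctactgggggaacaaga
RPL3: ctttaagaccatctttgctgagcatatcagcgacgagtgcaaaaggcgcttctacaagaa
The RPL9 probe had 35% G and C, and 4.15% of all probes tested had less. The RPS2 probe had 55%, with 85.2% of probes below it, and the other 3 had 45%. The median was 45% over the members and 43.3% over all probes tested.

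In pregnant cows, the member probes of RPL4, RPS4X and RPL9 were lower on day 18 than on day 15. RPL4, a protein of the large subunit that lines its exit tunnel, had a level of 140, 100 and 103 times the array median on day 15 and of 47.0, 45.4, 35.6 and 69.2 on day 18. Every pregnant cow of day 18 was below every pregnant cow of day 15. The decrease was 2.36-fold (log2 change of -1.24, SE 0.34, limma adjusted p = 0.0244, exact permutation p = 0.0571). An entry described as "similar to" RPL4 had a log2 change of -0.35 in the same comparison (limma adjusted p = 0.456). RPS4X, the X-linked form of a small-subunit protein, had a level of 342, 323 and 350 on day 15 and of 129, 194, 167 and 155 on day 18. Again the groups did not overlap, and the day 15 values lay close together. RPS4X fell 2.12-fold (log2 change of -1.09, SE 0.31, limma adjusted p = 0.0280, exact permutation p = 0.0286). RPL9, a large-subunit protein of the ribosomal base from which the stalk rises, had a level of 36.4, 35.4 and 39.8 on day 15 and of 12.2, 15.8, 19.9 and 13.7 on day 18. It fell 2.45-fold (log2 change of -1.29, SE 0.37, limma adjusted p = 0.0308, exact permutation p = 0.0286), and the groups did not overlap. The smallest p-value the exact test can give is 0.0286.

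In the non-pregnant cows, the levels of these 3 members overlapped between the days. RPL4 had levels of 189, 125, 138 and 66.7 on day 15 and of 66.6, 110, 92.9 and 123 on day 18. RPS4X had 208, 168, 460 and 297 on day 15 and 223, 206, 157 and 277 on day 18. RPL9 had 16.8, 11.7, 45.5 and 12.9 on day 15, where only replicate 3 reached the level of the pregnant cows, and 12.3, 12, 10.4 and 15.5 on day 18. None of the 3 passed the limma test between the days in non-pregnant cows (log2 changes of -0.35, -0.31 and -0.57, adjusted p = 0.495, 0.491 and 0.298). The differences between the day effects were not past the threshold either, since the interaction was -0.89 for RPL4, -0.77 for RPS4X and -0.73 for RPL9 (adjusted p = 0.306, 0.328 and 0.463).

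**Figure D3:**
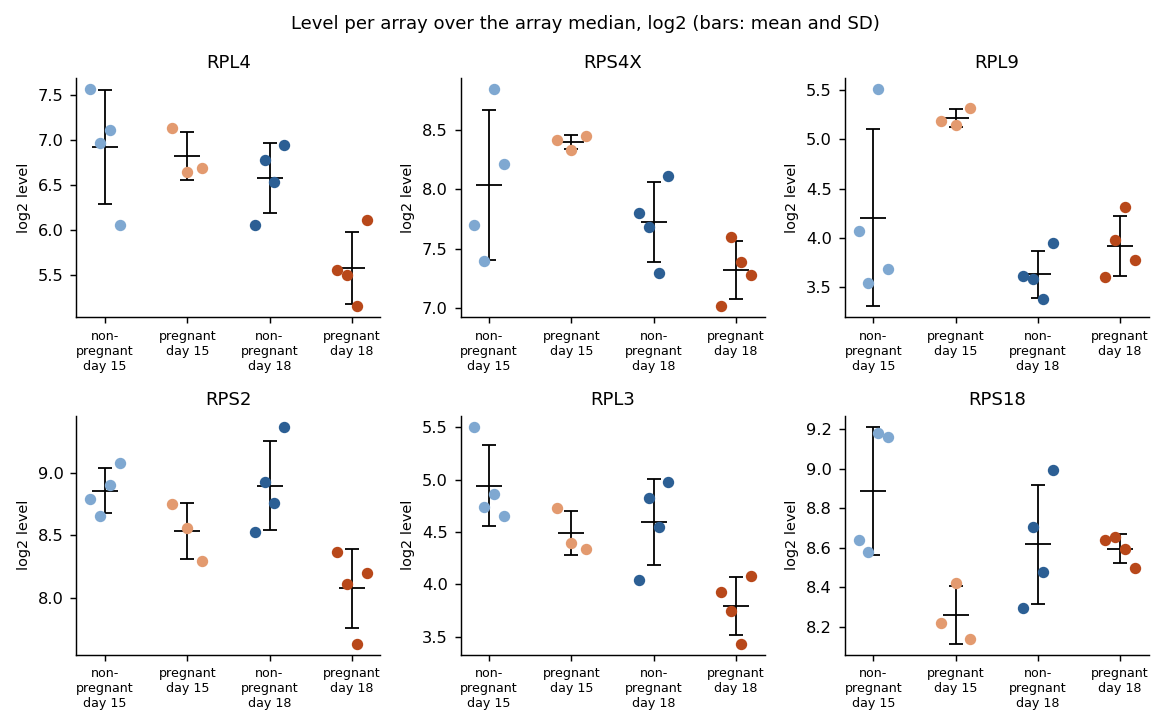
Each point is the level of 1 array over the array median on the log2 scale, and the bars give the mean and SD of the group (n = 4, 3, 4 and 4 from left to right), each panel with its own vertical range that does not start at 0. RPL4, RPS4X and RPL9 are lower in pregnant cows of day 18 than of day 15 without overlap, RPS2 is lower in pregnant than in non-pregnant cows of day 18, and RPL3 and RPS18 are shown beside them.

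The 3 calls rested on few arrays. When replicate 1, 2 or 3 of the pregnant group of day 15 was left out, no member was called, and adjusted p reached 0.105 for RPL4, 0.0907 for RPS4X and 0.101 for RPL9. Without replicate 1 or 4 of the pregnant group of day 18 only RPL4 was called, without replicate 2 only RPS4X and without replicate 3 only RPL9, whereas the log2 changes were between -1.42 and -1.09 for RPL4, -1.18 and -0.98 for RPS4X, and -1.43 and -1.19 for RPL9. Without non-pregnant replicate 4 of day 15, RPS3A was called as well (log2 change of 1.02, limma adjusted p = 0.0473). It was also called with array weights and in a fit of the pregnant groups alone (limma adjusted p = 0.00592 and 0.0125), and by the methods' t-test (adjusted p = 0.0312). The dim RPS3A probe had 0.154, 0.205 and 0.151 on day 15 and 0.297, 0.319, 0.46 and 0.311 on day 18 of pregnancy (exact permutation p = 0.0286). A random block for the scan day gave RPL4, RPS4X and RPL9 limma adjusted p of 0.325, 0.315 and 0.323, and no member was called. Scan day and group cannot be told apart in this comparison. Levels of RPL4, RPS4X and RPL9 under those of day 15 were measured in every array of the pregnant group of day 18. In that group trophoblast markers were near the level of non-pregnant cows in replicate 1 alone, and high in replicates 2 to 4. The part of trophoblast in the changes of these members was not tested. From day 15 to day 18 of pregnancy, the summed stroma and smooth muscle markers were lower and the epithelial markers higher without overlap, and COL1A1, COL3A1 and VIM among 8 stroma markers passed the limma test as lower, while FOXA2 and EPCAM passed as higher and CDH1 as lower among 8 epithelial markers. The part of these cell types in the changes of RPL4, RPS4X and RPL9 was not tested.

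Over all members, day 18 against day 15 in pregnant cows had a median log2 change of -0.06, from -1.29 for RPL9 to 1.02 for RPS3A, beside 0.12 over all probes tested. There were 19 members above 0 and 29 below, and 39 lay within 0.5 of 0. At an unadjusted p under 0.05 there were 6 members with limma, all lower on day 18, and 19 with the methods' t-test. Over all probes tested, 32.6% were under that threshold with limma. The median was 0.00 over large-subunit and stalk probes and -0.15 over small-subunit probes. RPL31, a large-subunit protein near the tunnel exit, came next with a log2 change of -0.82 (limma adjusted p = 0.145). The largest positive changes were those of RPS3A (1.02, adjusted p = 0.163), RPL7 (0.69, adjusted p = 0.156), RPL21 (0.50, adjusted p = 0.219) and RPL6 (0.36, adjusted p = 0.353), none past the limma threshold.

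On day 18, RPS2 was lower in pregnant than in non-pregnant cows. RPS2, a small-subunit protein near the entry of the messenger RNA, had a level of 369, 488, 432 and 662 in the non-pregnant and of 329, 276, 198 and 293 in the pregnant cows. All 4 pregnant cows were below all 4 non-pregnant cows. The decrease was 1.77-fold, under the fold limit (log2 change of -0.82, SE 0.22, limma adjusted p = 0.0411, exact permutation p = 0.0286). No member was called on day 18, where 5 members had an unadjusted p under 0.05 with limma and 7 with the methods' t-test, none of the latter after adjustment. Over all probes tested, 24.1% had an unadjusted p under 0.05 with limma. RPS2 no longer passed without replicate 1, 2 or 3 of the pregnant group of day 15, without replicate 2, 3 or 4 of either group of day 18, with the slide, the scan day or the replicate number as a block, in a fit of the groups of day 18 alone, or by the methods' t-test with adjustment. Under these settings adjusted p was from 0.0539 to 0.723 and the log2 change from -0.87 to -0.66.

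RPL4, RPL3 and RPL8 had log2 changes of a like size on day 18 that were not past the limma threshold. RPL4 had 66.6, 110, 92.9 and 123 in the non-pregnant cows, and its pregnant values, given above, overlapped them in replicate 4 alone. Its log2 change was -1.0 (SE 0.31, limma adjusted p = 0.0699, exact permutation p = 0.0571). RPL3, which sits beside the peptide-joining center of the large subunit, had 16.5, 28.3, 23.4 and 31.4 in the non-pregnant and 15.2, 13.4, 10.8 and 16.9 in the pregnant cows. Its log2 change was -0.80 (SE 0.25, limma adjusted p = 0.0715), and the groups overlapped in 1 cow each. RPL8, another protein of the large-subunit core, had a log2 change of -0.65 (adjusted p = 0.140 with limma). Among the entries described as "similar to" these proteins, that of RPL4 had a change of -0.05 and that of RPL8 of 0.01 (limma adjusted p = 0.939 and 0.979). The largest positive changes among spots below saturation were 0.37 for RPL26, 0.37 for RPS12 probe ABR1226 and 0.36 for RPL29 (limma adjusted p = 0.529, 0.391 and 0.322). RPS14 had a fitted change of 0.44 (limma adjusted p = 0.187), but it was saturated in 3 of 4 non-pregnant arrays of day 18 and in all 3 pregnant arrays of day 15, so its levels there are lower limits and its changes have no exact size.

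The comparisons of day 18 with day 15 and of pregnant with non-pregnant cows share the pregnant arrays of day 18. In these, RPL3 had a log2 change of -0.69 from day 15 and RPS2 of -0.46 (limma adjusted p = 0.0933 and 0.203), beside the -0.80 and -0.82 against non-pregnant cows. RPS4X and RPL9, which fell from day 15, had -0.41 and 0.29 against non-pregnant cows of day 18 (adjusted p = 0.404 and 0.656). The median over all members on day 18 was 0.10, beside 0.07 over all probes, with 28 members above 0 and 20 below, and 43 within 0.5 of 0.

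**Figure D4:**
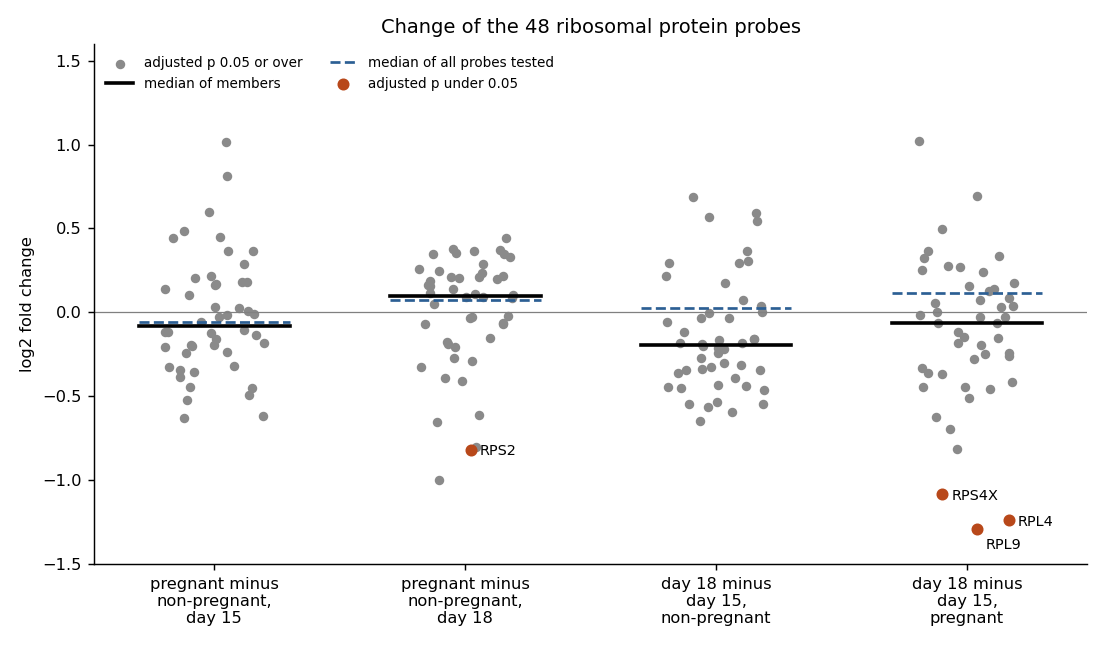
Each point is the log2 fold change of 1 member probe from limma in the comparison named below it, placed with a random sideways shift. Orange points with names passed the test (adjusted p under 0.05), black lines are medians of the 48 members and blue dashed lines medians of the 13164 probes tested. RPS2 passed on day 18, RPS4X, RPL4 and RPL9 between the days of pregnancy, and the members' medians lay between -0.20 and 0.10.

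On day 15, no member passed the limma test between pregnant and non-pregnant cows, and the smallest adjusted p was 0.208. There were 5 members at an unadjusted p under 0.05 with limma and 3 with the methods' t-test, of which none remained after adjustment, and the share over all probes with limma was 14.9%. RPL9 had the largest positive value, with a log2 change of 1.01 (SE 0.37, limma adjusted p = 0.223), and the high value of non-pregnant replicate 3 lay above the pregnant cows. Without that array, RPL9 had a change of 1.45 and RPL31 of 1.04, and both were called (limma adjusted p = 0.0111 and 0.0317). RPS12 probe ABR3265 had a change of 0.82, RPL31 of 0.60 and RPS24 of 0.49 (adjusted p = 0.235, 0.478 and 0.458). The most negative changes were those of RPS18 (-0.63), RPL6 (-0.62), RPL15 (-0.52) and RPS3A (-0.49), with limma adjusted p of 0.208, 0.285, 0.302 and 0.688. RPS18, RPL6 and RPL15 did not overlap between the groups. The members' median was -0.08, beside -0.06 over all probes, with 20 members above 0.

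In non-pregnant cows, no member passed the limma test between day 18 and day 15, where 5 had an unadjusted p under 0.05 and 3 by the methods' t-test, none after adjustment. The share over all probes at that threshold was 29.3% with limma. The members' median was -0.20, beside 0.02 over all probes, with 13 members above 0 and 35 below. It was -0.03 without non-pregnant replicate 3 of day 15, -0.03 with array weights, and -0.04 after quantile normalization, where the median of all probes was -0.03. RPS25, a protein of the small-subunit head (-0.65), and RPL9 (-0.57) were among the most negative changes, with limma adjusted p of 0.124 and 0.298. RPS14 had 890, 952, 1580 and 1150 on day 15, and on day 18 it had 657 in replicate 3 and saturated spots at 803, 826 and 781 in the other replicates, so whether the groups overlap is not known. RPS26 (0.69), RPS3A (0.59), RPL21 (0.57) and RPL36A (0.55) had the largest positive changes (adjusted p = 0.363, 0.414, 0.148 and 0.247 with limma). RPS26 ranged from 23.6 to 162 within the non-pregnant group of day 15, and its residual SD of 0.74 was the widest of the members. For the interaction no member passed with limma, the smallest adjusted p was 0.274 (that of RPS14), and 0 members had an unadjusted p under 0.05, beside 19.3% of all probes. The interaction was lowest for RPL4, RPS4X, RPS26 (-0.75) and RPL9, and highest for RPL15 (0.63), RPS18 (0.61) and RPL29 (0.57), apart from the saturated RPS14.

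Among the members often used as reference genes, the RPL4 member fell between the days of pregnancy, unlike the "similar to" RPL4 entry, which did not pass there. RPS18, RPS15A and RPLP0 did not pass the test in any comparison. RPS18, a protein of the small-subunit head, had levels of 399, 382, 579 and 571 in the non-pregnant and 298, 343 and 282 in the pregnant cows of day 15. On day 18 it had 314, 417, 356 and 510 and 399, 403, 386 and 361. Its log2 change with pregnancy was -0.63 on day 15 and -0.02 on day 18. The RPLP0 probe had levels from 0.321 to 0.662 over all arrays, and its log2 change was -0.33 on day 15 and -0.39 on day 18 (limma adjusted p = 0.608 and 0.356). This probe was dim, below the array median in every array, and whether it measures its transcript was not tested. RPLP0 is the base of the stalk that recruits elongation factors, and RPLP2 is among the proteins bound to it. RPLP2, saturated in non-pregnant replicate 4 of day 18, had levels from 452 to 787 over all arrays and log2 changes of -0.12 on day 15 and 0.22 on day 18 with pregnancy (adjusted p = 0.866 and 0.576 with limma). RPS27A, which is made as a fusion with ubiquitin, had 424, 412 and 396 in pregnant cows of day 15 and 381, 424, 455 and 356 in those of day 18. Its log2 changes were between -0.03 and 0.01 in the 5 comparisons, with standard errors from 0.24 to 0.36.

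Several members were measured more than once. The 2 probes of RPS28 had a correlation of 0.88 over the 15 arrays and log2 changes of the same sign in the 5 comparisons. The RPS15A probes had a correlation of 0.63, with log2 changes of 0.10 and -0.21 on day 15 and 0.11 and 0.05 on day 18. One of them, ABR7622, had the same 60 bases as a probe named PRXL2C in the files, so its gene is uncertain. The RPS12 probes had a correlation of 0.33 and opposite signs on day 15 (0.82 and -0.14) and between the days of non-pregnant cows (0.29 and -0.53), and neither passed the limma test. Whether each probe lies on the strand of its transcript was not checked here.

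The probe of RPL24, a large-subunit protein at the interface with the small subunit, and an entry described as similar to RPL30 carried the same bases, which are shown because they make a technical repeat within each array.
RPL24: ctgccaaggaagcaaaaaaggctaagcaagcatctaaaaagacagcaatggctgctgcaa
RPL30 entry: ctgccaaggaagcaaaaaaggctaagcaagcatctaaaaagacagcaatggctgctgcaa
Their log2 levels differed by at most 0.27 in an array and had a correlation of 0.96. The log2 changes were 0.29 and 0.41 on day 15, 0.20 and 0.25 on day 18, -0.16 and -0.11 between the days of non-pregnant cows and -0.25 and -0.27 between those of pregnant cows. The RPL7 probe was repeated in the same way by an entry without a symbol, with changes of 0.69 and 0.64 between the days of pregnancy, and an RPS10 entry shared 57 bases with the RPS10 member.

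The 31 entries described as "similar to" a ribosomal protein were left out by the rule, although they include RPL19, RPS23 and RPLP1 by symbol and RPL32 by its description alone, which no member measures. These 4 did not pass in any comparison, with log2 changes with pregnancy on day 18 of 0.00, 0.21, 0.31 and 0.26 for RPL19, RPS23, RPLP1 and RPL32 (limma adjusted p = 0.997, 0.667, 0.560 and 0.568). On day 18, 2 of the 31 entries were called, both higher in pregnant cows, where 5.75% of all probes were called. The 2 entries were RPL3L, the muscle paralog of RPL3 (log2 change of 1.47, adjusted p = 0.00793 with limma), and an RPL35A entry (1.11, adjusted p = 0.0134). The RPL35A member had 0.09 in the same comparison. The RPL35A entry had levels of 44.5, 34.8, 23.6 and 29.9 in non-pregnant and 75.6, 74.2, 71.8 and 59.4 in pregnant cows, which did not overlap. The RPL3L entry was dim, below the array median in every array. It had 0.0899, 0.133, 0.139 and 0.0944 in non-pregnant and 0.199, 0.329, 0.27 and 0.528 in pregnant cows of day 18. Whether it measures its transcript was not tested. Between the days of pregnancy, RPL3L (1.2), the RPL35A entry (1.03) and RPS27L (1.17), a paralog of RPS27 known as a target of p53, were called higher on day 18 with limma adjusted p of 0.0202, 0.0169 and 0.0168. There 11.9% of all probes were called, so both shares of the entries are near those of all probes. A second RPL4 entry had -0.35 there, beside -1.24 for the RPL4 member.

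Related genes of translation were given by counts over lists of genes, with 1 probe per gene. Of the mitochondrial ribosomal proteins, 48 genes were tested, and between the days of pregnancy 14 were higher and 2 lower on day 18 with a median log2 change of 0.55, beside 16.4% of all probes that passed. The largest changes were 2.43 for MRPL16, 1.82 for MRPL32, 1.47 for MRPL47 and 1.31 for MRPS14 (limma adjusted p = 0.0331, 0.00429, 0.00210 and 0.0127). Of 44 ribosome biogenesis genes, which assemble the subunits in the nucleolus, 6 were higher and 0 lower in the same comparison, with a median of 0.56, among them NOP10 (1.38) and UTP23 (1.33). In non-pregnant cows 6 were higher and 0 lower on day 18, led by UTP20 (1.89) and DDX10 (1.24), where 10.8% of all probes passed. With pregnancy on day 18, 3 were higher and 1 lower, where 6.91% of all probes passed. These shares of the list are near those of all probes. Of 24 initiation factors, 3 were higher and 2 lower on day 18 than on day 15 of pregnancy, where 16.4% of all probes passed. The changes were 2.26 for EIF5, 1.40 for the cap-binding protein EIF4E, -1.46 for its inhibitor EIF4EBP2 and -1.37 for EIF3D. In non-pregnant cows, 3 were higher and 0 lower on day 18, where 10.8% of all probes passed. EIF4E was among these 3, with a log2 change of 0.94 (limma adjusted p = 0.0403). None of 6 elongation factors passed the limma test in any comparison, and at an unadjusted p under 0.05 there were 2 for pregnancy on day 18, where 24.1% of all probes were, and 0 in the other comparisons, against 1 for pregnancy on each day by the methods' t-test. Whether these lists differ from the cytosolic ribosomal proteins was not tested.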

How the data were processed

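The authors' Feature Extraction software (version 9.5) gave each spot a background-subtracted intensity on a linear scale and flags for signal well above background, saturation and outliers, which were deposited as such. A second deposited table holds log2 values with another scaling, made by the authors, and served as an alternative. Log2 of each intensity was taken after scaling every array to its median. Of 15208 probes, 13164 were well above background in 3 or more arrays and entered the fit (limma 3.58.1, R 4.3.3), which had 1 mean per group over 15 arrays, and p-values were adjusted over all of these. Members also had a two-sided exact test that permuted arrays between both groups. The procedure was tested on simulated data. Python 3.11.15 with pandas 2.3.3 and numpy 2.4.6 wrote the tables, and matplotlib 3.10.9 drew the plots.

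The members and lists were chosen with earlier results of these data known. Named were every called or passed member, the 4 largest rises and falls in each comparison, reference genes, stalk proteins and RPS27A. Gene symbols came from the files and RefSeq's gene table (ARS-UCD2.0, for names alone), and all 48 members had a symbol. The values of 1 member and of 1 related gene are not reported here, although the counts and medians over all members include that member. The alternatives were other scalings, filters, variance models and tests, saturated spots set to missing, slide, scan day or replicate number as a block, and leaving out each array. Counting the 31 "similar to" entries as members was added after the data were seen. The number of arrays limits the precision.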

Additional observations from a re-analysis of the deposited data

Results flagged for a closer look

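In groups of 4 arrays, the gap between the highest or lowest value and its neighbor was compared with the range of the group for the median of the members and for the members described in detail, in 33 tests, of which chance flags about 1 in 20. A single value stood apart. The RPLP0 probe in non-pregnant replicate 1 of day 18 was 0.468 times the array median, below a group median of 0.643, and the gap made up 0.908 of the range of the group, above Dixon's critical value for groups of 4. No member passed the limma test of the difference between the pregnancy effects of the days.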

How the results depend on the processing

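The median log2 change of the members kept within 0.301 of its main value in each comparison and alternative. This limit, the spread of the members' median between arrays, is wide beside the changes themselves. The sign of the median turned for pregnancy on day 15 (-0.17 to 0.10), for pregnancy on day 18 (-0.04 to 0.25) and for the interaction (-0.26 to 0.15), leaving out each array included. The median ran from -0.36 to -0.01 between the days of pregnancy and from -0.36 to -0.03 between those of non-pregnant cows. With the 75th percentile in place of the median, the median over all probes moved by -0.30 between the days of pregnancy, -0.12 between those of non-pregnant cows and -0.18 for the interaction, a shift the members share by construction. The members' median relative to all probes was -0.18, -0.22 and -0.12 in the main fits, -0.06, -0.01 and -0.22 after quantile normalization and -0.35, -0.07 and -0.36 after normexp. Between the days of pregnancy, the members called numbered 3 in the main fit, 5 after quantile normalization, 0 when scan day was a random block, 1 with the replicate block, 6 with the "similar to" entries, and from 0 to 4 when each array was left out. By the methods' t-test 8 members passed with adjustment at any fold, against 3 with limma, and the share over all probes is not given for the t-test. For pregnancy on day 18, the members called numbered 0 in the main fit, 1 with no fold limit, 1 after normexp background correction, 1 with array weights, 2 after quantile normalization, 2 with the added entries, and from 0 to 1 when each array was left out (1 without non-pregnant replicate 1). On day 15, they numbered 2 with array weights and from 0 to 2 when each array was left out (2 without non-pregnant replicate 3), and in non-pregnant cows 1 with array weights, against 0 in the main fits. Between the days of pregnancy, RPS3A was also called with array weights, in the fit of these groups alone and by the methods' adjusted t-test. The cause of the differences between alternatives was not tested. The replicate numbers do not stand for the same cow in different groups, since each uterus was collected after slaughter. Correlations of same-numbered arrays ran from -0.26 to 0.30, and those of differently numbered arrays from -0.33 to 0.22. These ranges cannot show whether same-numbered arrays share anything else, so the replicate block is given as an alternative only. The log2 changes of RPL4, RPS4X, RPL9 and RPS2 kept their sign under every alternative run. Slide, scan day and group overlap in this design, and 3 or 4 arrays a group leave changes of about 1 or less on the log2 scale mostly out of reach of the test. In the simulated data, 17% of probes changed by 1 and 60% of those changed by 1.5 were recovered for pregnancy on day 18. The simulation used the spread of all probes and 200 changed probes, so these shares need not hold for the members.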

Other observations

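Across the 48 members, the share of G and C in the probe had a Pearson correlation of -0.44 with the log2 change of pregnancy on day 15, of -0.18 on day 18, of -0.19 between the days of non-pregnant cows and of 0.07 between those of pregnant cows. Over the 13164 probes tested, the correlations were -0.32, -0.13, -0.31 and -0.17. The probes share arrays and scaling, and genes are not independent replicates.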
